A study of Rattus norvegicus with 25 samples.

Results

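The genes described here are 10 members of the transforming growth factor beta (TGF-beta) pathway, taken by symbol from a table of 28909 genes. They are the ligands Tgfb1, Tgfb2 and Tgfb3, the receptors Tgfbr1 and Tgfbr2, the signal carrier Smad3, the inhibitory Smads Smad6 and Smad7, and the target genes Id1 and Id3. All 10 were found, and all 10 passed the filter on low counts that left 14142 genes for testing. Smad7 was put on the list because it was lower with trapidil at 15 mg/kg than with levodopa alone, so its values in that comparison are a description and carry no test.

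RNA was sequenced from the striatum on the lesioned side of 25 female Sprague Dawley rats, 1 library each. Every rat had received 6-OHDA, a toxin that destroys dopamine neurons and is used to model Parkinson's disease, and every rat then received levodopa, the precursor of dopamine, at 6 mg/kg given QD (once a day). The arms were levodopa alone (n = 5), levodopa with trapidil at 7.5 mg/kg (n = 10) and levodopa with trapidil at 15 mg/kg (n = 10), the trapidil given BID (2 times a day). Trapidil is a vasodilator and antiplatelet drug that also blocks the action of platelet-derived growth factor. Dosing lasted 14 days and tissue was taken on day 15, the labels giving 1 hour in relation to dosing without saying on which side of it. No unlesioned animals and no lesioned animals without levodopa were analysed here, so the values compare trapidil doses on a shared lesion and a shared levodopa treatment.

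TGF-beta ligands are secreted in a latent form and, once released, bring together the type II receptor Tgfbr2 and the type I receptor Tgfbr1. The active receptor phosphorylates Smad2 and Smad3, which enter the nucleus with Smad4 and regulate target genes. Smad7 blocks the active type I receptor and is itself a target of the pathway, so that it acts as negative feedback, while Smad6 mainly restrains the related bone morphogenetic protein (BMP) branch. In brain tissue, endothelial cells, pericytes, astrocytes and microglia express ligands, receptors and the Id genes, which encode inhibitors of helix-loop-helix transcription factors.

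Total counts per library were 16535828 to 19274429 with levodopa, 10838513 to 18794463 with trapidil at 7.5 mg/kg and 13862132 to 20532290 at 15 mg/kg. Levels are given as CPM (counts scaled to a common library total) scaled with edgeR's TMM factors, and they are not compared between genes because gene length was not used. Spiny projection neurons are the main neurons of the striatum, and the summed CPM of 12 of their markers was 9525 to 16890 with levodopa, 13310 to 16900 at 7.5 mg/kg and 12680 to 16410 at 15 mg/kg. Levodopa replicate 2 stood apart from the other libraries. It held the highest sums of its arm for endothelial (851 CPM), pericyte and smooth muscle (433.2 CPM), astrocyte (8855 CPM) and microglia markers (824.7 CPM), and the lowest spiny projection neuron score of any library (-3.04, a mean z-score). The members' comparisons with levodopa are therefore given with and without that library, in the text or in the plot of fold changes.

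Promoter windows of 250 bases before to 50 bases after the start site, from RefSeq on GRCr8, matched 9 of the 10 members. The GC-rich sequence GGCGCC, which Smad proteins are known to bind, reads the same on both strands and was present in 3 of these 9 windows, against 11% of the 33469 windows in the table. The windows of these 3 members are shown because they include Smad7 and because 1 of them belongs to a receptor and 1 to a signal carrier of the same pathway. Capitals mark GGCGCC, and each sequence is written 5′ to 3′ on the strand of its gene.
Smad7, chr18:71263258-71263557, plus strand: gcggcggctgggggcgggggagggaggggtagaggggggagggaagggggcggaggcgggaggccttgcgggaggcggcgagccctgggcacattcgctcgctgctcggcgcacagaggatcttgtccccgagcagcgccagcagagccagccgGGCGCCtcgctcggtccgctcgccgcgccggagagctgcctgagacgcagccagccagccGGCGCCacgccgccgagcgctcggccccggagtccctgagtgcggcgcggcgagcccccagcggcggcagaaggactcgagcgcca
Smad3, chr8:73132275-73132574, minus strand: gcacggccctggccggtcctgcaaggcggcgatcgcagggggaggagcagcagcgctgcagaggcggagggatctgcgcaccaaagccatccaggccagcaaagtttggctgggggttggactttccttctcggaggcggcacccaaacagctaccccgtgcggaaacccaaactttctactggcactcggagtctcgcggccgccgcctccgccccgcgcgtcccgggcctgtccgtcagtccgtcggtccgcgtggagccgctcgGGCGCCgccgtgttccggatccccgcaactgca
Tgfbr1, chr5:66449148-66449447, plus strand: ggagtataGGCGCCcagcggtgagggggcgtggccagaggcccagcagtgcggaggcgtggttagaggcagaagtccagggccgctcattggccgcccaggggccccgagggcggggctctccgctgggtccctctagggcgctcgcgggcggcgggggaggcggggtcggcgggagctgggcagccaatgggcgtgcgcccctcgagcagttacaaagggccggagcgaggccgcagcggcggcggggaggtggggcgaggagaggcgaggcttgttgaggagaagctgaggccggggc

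The Smad7 window held GGCGCC at 2 places, beginning 96 and 36 bases before the start site (positions -96 and -36). The Smad3 window held it from base 18 after the start, and the Tgfbr1 window from position -242. The CAGA box CAGAC, searched on both strands, was found in Id1 alone among the 9 members, from base 24 after the start, against 50.1% of all windows. The palindromic Smad-binding element GTCTAGAC was found in 0 of the 9 and in 0.197% of all windows. These are matches of letters within the windows and show neither binding nor its absence.

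Smad7, the inhibitory Smad of the receptor, had 95.53, 70.26, 87.53, 64.39 and 81.54 CPM in levodopa replicates 1 to 5. The lowest, median and highest libraries at 7.5 mg/kg had 60.53, 65.96 and 84.81 CPM, and those at 15 mg/kg had 48.14, 59.42 and 64.02 CPM. Ordered by dose, the means and SDs were 79.85 ± 12.64 CPM in the 5 levodopa libraries, 68.16 ± 7.676 CPM in the 10 libraries at 7.5 mg/kg and 58.01 ± 4.421 CPM in the 10 libraries at 15 mg/kg. Every library at 15 mg/kg lay below every levodopa library, the gap running only between 64.02 CPM at 15 mg/kg and 64.39 CPM with levodopa. The 7.5 mg/kg range overlapped both neighbours in this order. Smad7 also varied least in the 15 mg/kg arm, as the SDs show.

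The log2 fold change of Smad7 at 15 mg/kg against levodopa was -0.46 ± 0.08 (SE), which is the contrast the gene was chosen on. Across all genes tested, 0.707% had ranges that did not overlap between these arms, 0.410% with 15 mg/kg the lower and 0.297% with it the higher, and nothing is read from Smad7 being among them. The other 9 members all overlapped. In 7.5 mg/kg against levodopa all 10 members overlapped, where 0.0919% of genes did not (0.0636% lower and 0.0283% higher). For 7.5 mg/kg against levodopa the log2 fold change of Smad7 was -0.23 ± 0.08 (edgeR adjusted p = 0.305), and at 15 mg/kg against 7.5 mg/kg it was -0.23 ± 0.07 (edgeR adjusted p = 0.95). Neither passed the threshold of 0.05, and each shares a set of libraries with the contrast that chose Smad7, so neither is independent of that choice. Without levodopa replicate 2, the estimate was -0.50 ± 0.09 at 15 mg/kg against levodopa and -0.27 ± 0.09 at 7.5 mg/kg against levodopa, and it ran from -0.53 to -0.39 at 15 mg/kg over the 25 fits that each left out 1 library.

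**Figure D1:**
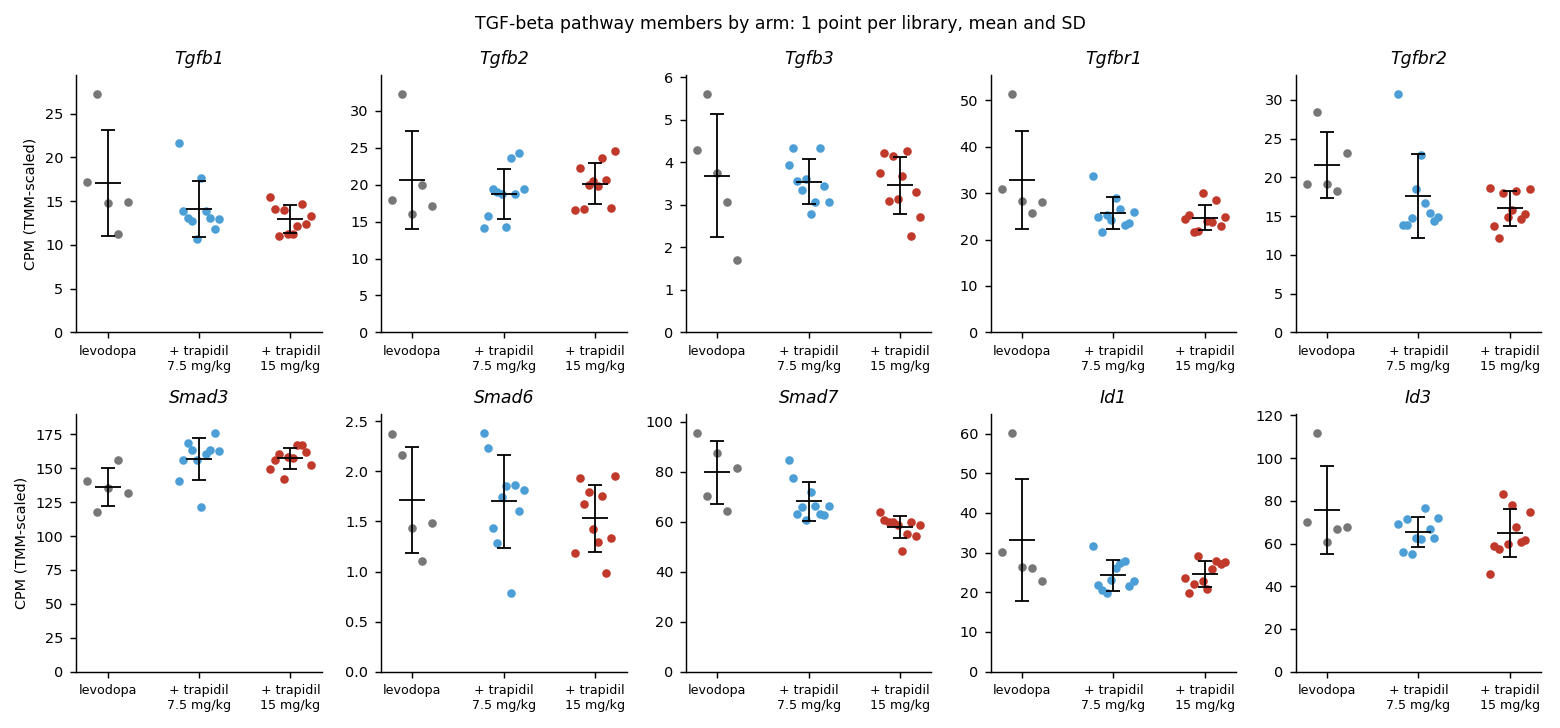
Scaled expression (CPM, linear axes from 0) of each of the 10 members in levodopa, trapidil 7.5 mg/kg and trapidil 15 mg/kg libraries. Each point is 1 library, and the bar and whiskers are the mean and SD. The 10 Smad7 points at 15 mg/kg lie at or under 64.02 CPM and the 5 levodopa points at or above 64.39 CPM, while a single levodopa library has 60.15 CPM of Id1 and 51.45 CPM of Tgfbr1.

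Smad3 carries the TGF-beta signal to the nucleus. It had 142.2, 157.7 and 167.3 CPM (lowest, median, highest) at 15 mg/kg, against 140.2, 117.5, 135.7, 156.3 and 131.5 CPM in levodopa replicates 1 to 5. Its mean was 157.2 ± 7.866 CPM at 15 mg/kg (SD, n = 10) and 136.2 ± 14.08 CPM with levodopa (SD, n = 5), and the ranges overlapped. The log2 fold change was 0.21 ± 0.07 (edgeR adjusted p = 0.0952), so Smad3 did not pass the test, and without levodopa replicate 2 it was 0.16 ± 0.07 (edgeR adjusted p = 0.323). Smad3 averaged 156.8 ± 15.44 CPM at 7.5 mg/kg (SD, n = 10), which was 0.20 ± 0.07 on the log2 scale above the same levodopa libraries (edgeR adjusted p = 0.287). The difference between the doses was 0.003 ± 0.055 on the log2 scale (edgeR adjusted p = 0.999). Smad6, the inhibitory Smad of the BMP branch, was counted at low depth, with 12 reads in its lowest library. It averaged 1.533 ± 0.3335 CPM at 15 mg/kg (SD, n = 10) and 1.711 ± 0.5303 CPM with levodopa (SD, n = 5). The log2 fold change of Smad6 was -0.16 ± 0.22 there (edgeR adjusted p = 0.732) and -0.01 ± 0.22 at 7.5 mg/kg against levodopa (edgeR adjusted p = 0.988).

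Neither receptor passed edgeR's test, although both averaged lower with trapidil than with levodopa. DESeq2 called Tgfbr1 at 15 mg/kg against levodopa (adjusted p = 0.0351) and limma called Tgfbr2 (adjusted p = 0.0408). Tgfbr1, the type I receptor kinase, had 21.61, 24.21 and 30.0 CPM (lowest, median, highest) at 15 mg/kg, against 30.91, 51.45, 28.4, 25.65 and 28.1 CPM in levodopa replicates 1 to 5. Of the levodopa libraries, replicates 3, 4 and 5 lay inside the 15 mg/kg range and replicates 1 and 2 above it. Its log2 fold change was -0.41 ± 0.12 at 15 mg/kg against levodopa (edgeR adjusted p = 0.0691) and -0.19 ± 0.09 without levodopa replicate 2 (edgeR adjusted p = 0.389). Tgfbr2, the type II receptor that binds ligand, averaged 16.01 ± 2.26 CPM at 15 mg/kg (SD, n = 10) and 21.62 ± 4.256 CPM with levodopa (SD, n = 5). Its highest library at 15 mg/kg had 18.67 CPM and its lowest levodopa library 18.21 CPM, so that the ranges overlapped by a narrow margin. The log2 fold change was -0.43 ± 0.15 with all libraries (edgeR adjusted p = 0.116) and -0.31 ± 0.16 without levodopa replicate 2 (edgeR adjusted p = 0.407). Trapidil at 7.5 mg/kg gave -0.35 ± 0.12 for Tgfbr1 and -0.30 ± 0.15 for Tgfbr2 against the same levodopa libraries, with edgeR adjusted p = 0.287 and 0.439.

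The ligands passed neither edgeR's test nor those of DESeq2 and limma in any comparison with all libraries. Tgfb1, the ligand most studied in injury and inflammation, had 11.04, 12.83 and 15.43 CPM (lowest, median, highest) at 15 mg/kg, against 17.13, 27.27, 14.8, 11.24 and 14.93 CPM in levodopa replicates 1 to 5. All 10 libraries at 15 mg/kg lay below the levodopa mean of 17.07 CPM, yet levodopa replicates 3, 4 and 5 lay inside the 15 mg/kg range. Its log2 fold change was -0.40 ± 0.15 (edgeR adjusted p = 0.147), and -0.16 ± 0.135 without levodopa replicate 2 (edgeR adjusted p = 0.659). Tgfb2 averaged 20.15 ± 2.828 CPM at 15 mg/kg (SD, n = 10) and 20.67 ± 6.667 CPM with levodopa (SD, n = 5). Its log2 fold change of -0.03 ± 0.14 (edgeR adjusted p = 0.926) became 0.18 ± 0.12 without levodopa replicate 2, which had 32.33 CPM (edgeR adjusted p = 0.564). Tgfb3 averaged 3.455 ± 0.675 CPM at 15 mg/kg (SD, n = 10) and 3.686 ± 1.452 CPM with levodopa (SD, n = 5), and its log2 fold change of -0.09 ± 0.19 likewise had the other sign, 0.11 ± 0.19, without that library.

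Id1 and Id3 are transcribed in response to BMP and TGF-beta receptors, and Id1 moved further than any other member at 15 mg/kg when levodopa replicate 2 was left out. Id1 had 19.75, 24.76 and 29.23 CPM (lowest, median, highest) at 15 mg/kg, against 30.03, 60.15, 26.31, 26.02 and 22.95 CPM in levodopa replicates 1 to 5. Id3 had 45.72, 61.18 and 83.22 CPM at 15 mg/kg, against 70.03, 111.8, 60.74, 67.02 and 67.94 CPM in the levodopa libraries. Apart from levodopa replicate 1 for Id1 and levodopa replicate 2 for both, the levodopa values lay inside the 15 mg/kg ranges. The log2 fold change of Id1 was -0.42 ± 0.16 (edgeR adjusted p = 0.138), and -0.09 ± 0.11 without levodopa replicate 2 (edgeR adjusted p = 0.808). For Id3 it was -0.22 ± 0.12 (edgeR adjusted p = 0.328), and -0.03 ± 0.11 without that library (edgeR adjusted p = 0.947). Id1 and Id3 gave -0.45 ± 0.16 and -0.21 ± 0.12 at 7.5 mg/kg against the same levodopa libraries (edgeR adjusted p = 0.297 and 0.517).

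Counted together, 0 of the 9 members other than Smad7 passed the edgeR test at 15 mg/kg against levodopa, where 1.31% of all 14142 genes did (185, or 20 genes without levodopa replicate 2). DESeq2 called 1 member in that comparison, Tgfbr1, and limma with quality weights called 2, Smad3 (adjusted p = 0.0252) and Tgfbr2. Over all 14142 genes DESeq2 called 655 in that comparison and limma 715. At an unadjusted edgeR p under 0.05 there were 5 of the 9 in that comparison, 4 lower (Tgfb1, Tgfbr1, Tgfbr2 and Id1) and 1 higher (Smad3), where 11.2% of all genes were lower and 8.26% higher. Leaving out levodopa replicate 4 raised the edgeR count to 3 of 9 (Tgfb1, Tgfbr1 and Smad3), and leaving out 7.5 mg/kg replicate 1 raised it to 2 of 9 (Tgfbr1 and Tgfbr2). The calls over all genes rose too, to 894 of 14210 and 639 of 14128 in those fits. With 7.5 mg/kg against levodopa the count was 0 of 10 and the background 0.0283%, and with 15 mg/kg against 7.5 mg/kg it was again 0 of 10 and 0.0283%. At an unadjusted edgeR p under 0.05 there were 4 of 10 at 7.5 mg/kg against levodopa (Tgfbr1, Smad3, Smad7 and Id1) and 1 of 10 at 15 mg/kg against 7.5 mg/kg (Smad7). Over all genes that level was met by 6.64% lower and 5.02% higher at 7.5 mg/kg against levodopa, and by 2.14% lower and 1.49% higher between the doses. DESeq2 called 0 members in both of these comparisons, and limma called 2 at 7.5 mg/kg against levodopa (Smad3 and Smad7) and 0 between the doses. Over all 14142 genes limma called 102 at 7.5 mg/kg against levodopa. The estimate was below 0 for 8 of the 9 at 15 mg/kg against levodopa (49.8% of all genes), for 9 of 10 at 7.5 mg/kg against levodopa (48.9%) and for 7 of 10 between the doses (51.2%). Without levodopa replicate 2 and with Smad7 aside, 6 of 9 were below 0 at 15 mg/kg against levodopa. Between the doses the other 9 members had log2 fold changes from -0.15 (Smad6) to 0.10 (Tgfb2). The counts of 10 include Smad7, which was chosen on libraries that each of those comparisons uses. Nothing is read from Smad7 being among the genes counted there. The comparisons share libraries, so their values are set side by side and not counted as separate evidence.

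**Figure D2:**
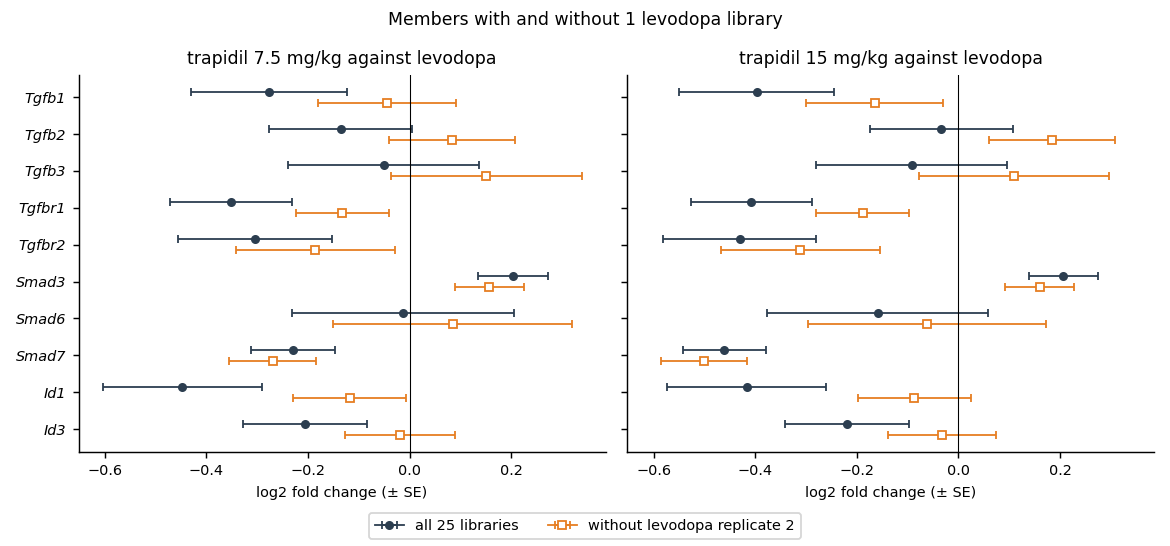
Log2 fold change of each member (horizontal axis, ± SE) for trapidil 7.5 mg/kg and 15 mg/kg against levodopa, from all 25 libraries (filled circles) and without levodopa replicate 2 (open squares). At 15 mg/kg Id1 moves to -0.09 and Tgfbr1 to -0.19 without that library, whereas Smad7, which was chosen on the 15 mg/kg contrast, is at -0.50.

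The members' levels were set beside markers of the cell types that the tissue holds, with 1.00% of all genes called lower by edgeR at 15 mg/kg against levodopa and 49.8% below 0. Over all 14142 genes DESeq2 called 434 lower and 221 higher in that comparison, and limma 417 lower and 298 higher. Of 13 endothelial markers tested, edgeR called 2 lower in that comparison (Slco1a4 and Slc16a1), DESeq2 9 and limma 3, and all 13 were lower at an unadjusted edgeR p under 0.05. The median log2 fold change was -0.40, against 0.000683 over all genes. After levodopa replicate 2 was left out edgeR called 0 of them (6 at an unadjusted p under 0.05) and the median was -0.23. That fit called only 20 of 14201 genes, 19 lower and 1 higher, so a loss of calls there is not particular to a list. With all libraries 11.2% of all genes were lower and 8.26% higher at an unadjusted edgeR p under 0.05. Their summed CPM was 460.6 to 851 with levodopa, 374.1 to 518.8 at 7.5 mg/kg and 343 to 448.8 at 15 mg/kg, and the marker Cldn5 was listed at 0 in every library.

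For 11 pericyte and smooth muscle markers edgeR called 0 (5 at an unadjusted p under 0.05, 2 by DESeq2 and 1 by limma), and the median was -0.24, or -0.04 without levodopa replicate 2. For 12 astrocyte markers edgeR called 0 (3 at an unadjusted p under 0.05, 0 by DESeq2 and 0 by limma). All 12 had negative estimates with a median of -0.17, but without that library 7 of the 12 were positive and the median was 0.0056. Among 12 microglia markers edgeR, DESeq2 and limma each called 1 lower (Gpr34) and the median was -0.31, whereas without that library edgeR called 0 (1 at an unadjusted p under 0.05) and it was -0.14. Their summed CPM was 203.1 to 294.2 for pericyte and smooth muscle, 3870 to 5593 for astrocyte and 412.6 to 522.8 for microglia markers at 15 mg/kg, against 225.1 to 433.2, 4694 to 8855 and 460.8 to 824.7 with levodopa.

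Markers of oligodendrocytes, the myelin-forming cells, had lower medians than these lists. Of 12 tested at 15 mg/kg against levodopa, edgeR called 6 lower (among them Opalin and Mal), DESeq2 8 and limma 9, all 12 were below 0, and the median was -0.60. Without levodopa replicate 2 edgeR called 0 of the 12 (10 at an unadjusted p under 0.05), all 12 were again below 0, and the median was -0.50. All 12 were also below 0 at 7.5 mg/kg against levodopa (median -0.29) and at 15 mg/kg against 7.5 mg/kg (median -0.30), with 0 called by edgeR in each, 7 and 8 at an unadjusted p under 0.05, 0 by DESeq2 in each, and 1 and 0 by limma. Over all genes 6.64% and 2.14% were lower at that unadjusted level. Their summed CPM was 10920 to 19950 with levodopa, 7553 to 16690 at 7.5 mg/kg and 6689 to 14080 at 15 mg/kg. The medians were 13590, 10250 and 8662 CPM in that order. Of 8 oligodendrocyte precursor markers edgeR called 1 lower (Sox10), with a median of -0.39, and 0 without levodopa replicate 2 (2 at an unadjusted p under 0.05), with -0.24. The 8 markers of ependymal cells, which line the ventricles, all had positive estimates at 15 mg/kg against levodopa, with a median of 1.19, or 1.46 without that library. None passed by edgeR (5 at an unadjusted p under 0.05) or DESeq2, and limma called 5 higher. The summed CPM of these ependymal markers was low, at 25.12 to 67.52 at 15 mg/kg and 2.656 to 56.36 with levodopa. The part of oligodendrocyte and ependymal markers in the members' values was not tested.

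In bulk tissue, fewer cells of a type and less RNA per cell cannot be told apart. With the endothelial score as a covariate, the 15 mg/kg log2 fold change against levodopa was 0.01 ± 0.09 for Tgfbr1, -0.01 ± 0.145 for Tgfbr2, 0.08 ± 0.135 for Tgfb1, 0.16 ± 0.12 for Id1 and 0.12 ± 0.12 for Id3. For Tgfb2 and Tgfb3 it was 0.28 ± 0.16 and 0.16 ± 0.23, where it was -0.03 and -0.09 without the covariate. For Smad7 it was -0.49 ± 0.10, close to the value without the covariate. Over all 14142 genes edgeR called 4 in that fit and 185 without the covariate. The score was measured in the same libraries as the arms, and its part in the members' values was not tested.

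Across the 10 libraries of an arm, each member was correlated with the endothelial, pericyte, astrocyte and microglia scores, 80 relations in all, with permutation p-values (100000 resamples, two-sided) adjusted over the 80. With Pearson's r, 8 passed 0.05, of which 7 were in the 7.5 mg/kg arm. There Tgfbr2 rose with the endothelial score (r = 0.906, permutation adjusted p = 0.0128; rho = 0.927, permutation adjusted p = 0.0157). Tgfbr1 rose with the pericyte score in that arm (r = 0.928, permutation adjusted p = 0.0068; rho = 0.915, permutation adjusted p = 0.0157), and Tgfb1 with the astrocyte score (r = 0.876, permutation adjusted p = 0.0128; rho = 0.818, permutation adjusted p = 0.0931). The same arm gave Id1 with the endothelial score (r = 0.861, permutation adjusted p = 0.0253; rho = 0.842, permutation adjusted p = 0.08). The remaining 3 were Tgfb1 with the pericyte score (r = 0.845, permutation adjusted p = 0.0358; rho = 0.60, permutation adjusted p = 0.406), Tgfb1 with the microglia score (r = 0.85, permutation adjusted p = 0.0445; rho = 0.588, permutation adjusted p = 0.406) and Tgfbr1 with the endothelial score (r = 0.82, permutation adjusted p = 0.0358; rho = 0.60, permutation adjusted p = 0.406). In the 15 mg/kg arm the relation past 0.05 was Tgfb2 with the astrocyte score (r = 0.869, permutation adjusted p = 0.0068; rho = 0.927, permutation adjusted p = 0.0157). After the 2 libraries farthest from the median of the score were left out, r was 0.715 for Tgfbr2, 0.853 for Tgfbr1 with the pericyte score and 0.394 for Tgfbr1 with the endothelial score, 0.814 for Id1 and 0.905 for Tgfb2. For Tgfb1 it was 0.696 with the astrocyte, 0.954 with the pericyte and 0.236 with the microglia score, so the relations of Tgfb1 with microglia and of Tgfbr1 with endothelial markers rested on those libraries. After this step 0 of the 80 were past 0.05 after adjustment. Of the 7 relations in the 7.5 mg/kg arm, replicate 1 was among the libraries left out in all 7. Smad7 passed with none of the scores in either arm. Its closest was the pericyte score at 7.5 mg/kg (r = 0.756, permutation adjusted p = 0.0789; rho = 0.758, permutation adjusted p = 0.197), with r = 0.576 after the 2 farthest libraries were left out. In that arm its r was 0.684 with the astrocyte, 0.524 with the microglia and 0.476 with the endothelial score. At 15 mg/kg its r was -0.368 with the pericyte, -0.0612 with the astrocyte, -0.0952 with the microglia and 0.209 with the endothelial score.

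**Figure D3:**
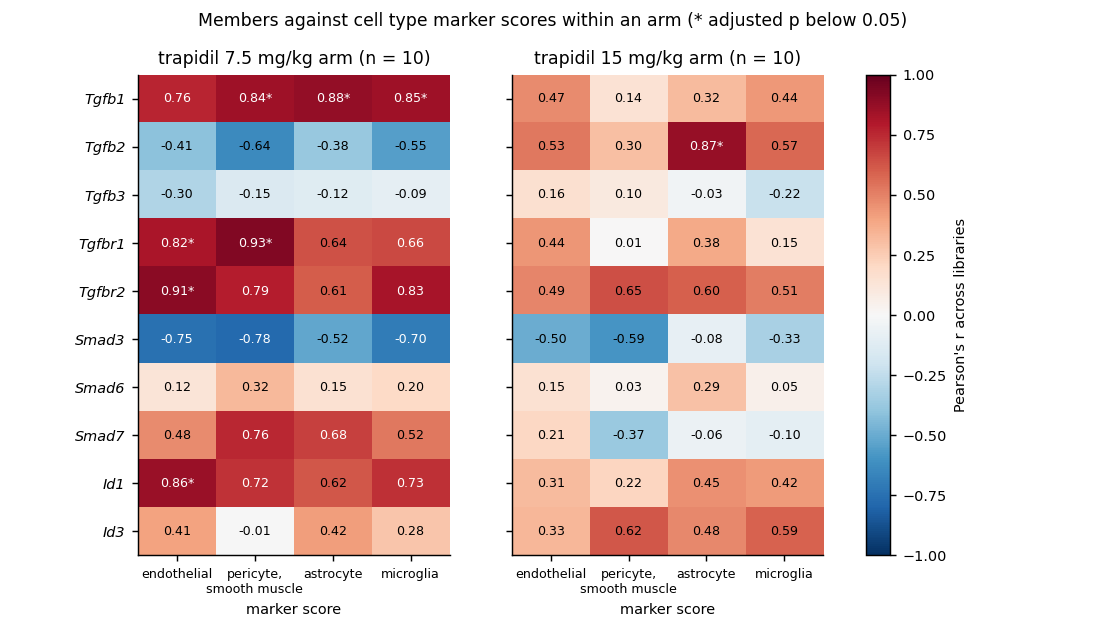
Pearson's r between each member (rows) and each cell type marker score (columns) across the 10 libraries of the 7.5 mg/kg arm (left) and of the 15 mg/kg arm (right), with red for positive and blue for negative r. Asterisks mark the 8 relations past an adjusted p of 0.05, of which 7 lie in the 7.5 mg/kg arm and the other is Tgfb2 with the astrocyte score (0.869) at 15 mg/kg.

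Smad7 was then compared with the other members within an arm. With Pearson's r, 0 of 18 relations passed 0.05 after adjustment, and 4 had an unadjusted permutation p under it. The closest was Tgfb1 at 7.5 mg/kg (r = 0.869, permutation adjusted p = 0.0706; rho = 0.879, permutation adjusted p = 0.0257), with r = 0.688 after the 2 farthest libraries were left out. At 15 mg/kg Smad7 and Tgfb1 had r = 0.628 (permutation adjusted p = 0.182; rho = 0.636, permutation adjusted p = 0.313), and r = 0.723 without the 2 farthest.

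Smad7 was set beside immediate early genes, which neurons transcribe soon after strong activity. Of 19 such genes tested, edgeR called 3 lower at 15 mg/kg against levodopa (Jun, Arc and Btg2), where 1.00% of all genes were, with a median log2 fold change of -0.42. It called 1 lower at 7.5 mg/kg against levodopa (Btg2), where 0.0283% of all genes were, with a median of -0.78. At 15 mg/kg against levodopa 4 of the 19 were positive, and 9 were lower and 2 higher at an unadjusted edgeR p under 0.05. Between the doses 13 of the 19 were positive, with a median of 0.34. There edgeR called 0, with 9 higher and 0 lower at an unadjusted p under 0.05, DESeq2 called Fosb, and limma called Fosb and Nr4a1. Which dose had more calls against levodopa depended on the tool and the libraries. DESeq2 called 5 at 15 mg/kg and 7 at 7.5 mg/kg, limma 10 and 12, and edgeR without levodopa replicate 2 called 2 (Jun and Btg2) and 3 (Egr2, Ier5 and Btg2). Over all 14142 genes DESeq2 called 655 and 53, and limma 715 and 102. Without that library edgeR called 20 and 9 of 14201. The summed CPM of the 19 early genes was 1145 to 3300 with levodopa, 765.9 to 2371 at 7.5 mg/kg and 1243 to 1966 at 15 mg/kg. The mean early gene score was 0.674 with levodopa, -0.443 at 7.5 mg/kg and 0.106 at 15 mg/kg. The Smad7 means were 79.85, 68.16 and 58.01 CPM in that order. Levodopa was thus highest for both, while the trapidil doses stood in opposite order for the score and for Smad7. With the early gene score as a covariate, Smad7 had a log2 fold change of -0.34 ± 0.06 at 15 mg/kg against levodopa and -0.01 ± 0.08 at 7.5 mg/kg against levodopa. In that fit the difference at 15 mg/kg against 7.5 mg/kg was -0.33 ± 0.05 (edgeR adjusted p = 0.00813), where it was -0.23 ± 0.07 without the covariate, and the 15 mg/kg libraries here are those Smad7 was chosen on. Within the 7.5 mg/kg arm Smad7 and the early gene score had r = 0.688 (permutation adjusted p = 0.137 over 4 relations; rho = 0.333, permutation adjusted p = 0.698), and r = 0.077 without the 2 libraries farthest from the median. Within the 15 mg/kg arm r was 0.50 (permutation adjusted p = 0.279; rho = 0.139, permutation adjusted p = 0.704), and r = -0.217 without the 2 farthest. These 4 relations, the other 2 being with the spiny projection neuron score, were added after the covariate fits had been seen.

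**Figure D4:**
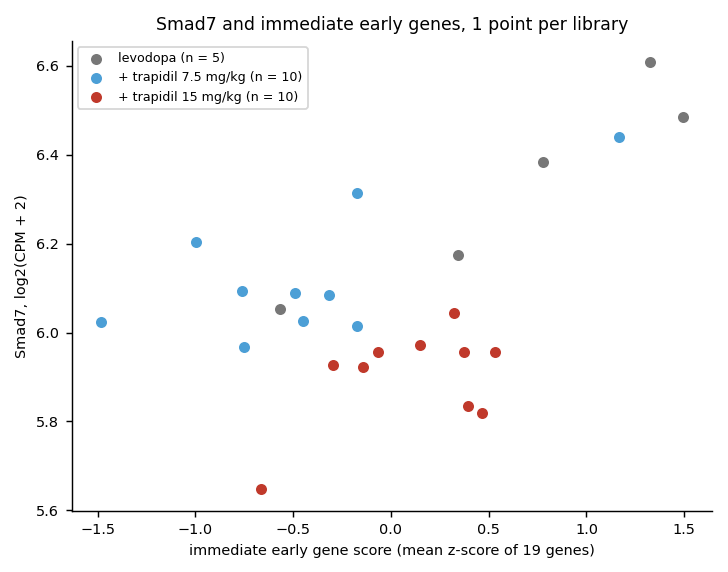
Smad7 (vertical axis, log2 of CPM plus 2) against the immediate early gene score (horizontal axis, mean z-score of 19 genes) in the 25 libraries, coloured by arm. The mean score is 0.674 with levodopa, -0.443 at 7.5 mg/kg and 0.106 at 15 mg/kg, and the 15 mg/kg libraries have the lowest mean on the Smad7 axis.

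Among 12231 genes compared across the 25 libraries on log2(CPM + 2), the levels most like Smad7 were those of Prss35 (r = 0.84), Grik4 (r = 0.829), Cck (r = 0.814), Shh (r = 0.809) and Gpr153 (r = 0.808). These correlations are a description of libraries that share the arm differences, so no p is given. On deviations from the arm means, which take the arms out, the leading genes were Syp (r = 0.869), Grina (r = 0.846), Nrgn (r = 0.842), Ppp2r5b (r = 0.84) and Nrxn2 (r = 0.836). Syp encodes a synaptic vesicle protein and Nrgn a calmodulin-binding protein of neurons. Grik4, which encodes a kainate receptor subunit, had 19.04 ± 2.609 CPM at 15 mg/kg (SD, n = 10) and 30.59 ± 4.22 CPM with levodopa (SD, n = 5). Of the other members, Tgfb1 was the most like Smad7 in levels (r = 0.583, place 522 of 12231) and Smad3 the least (r = -0.554, place 11597). Without levodopa replicate 2 the deviations of Tgfb1 came to place 13 (r = 0.815), against place 1174 (r = 0.469) with it, so where Tgfb1 stood depended on that library.

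The rest of the pathway was described from 8 lists of genes by role, 96 of whose members were tested. At 15 mg/kg against levodopa 2 of them passed the test, both lower, against 1.00% of all genes lower and 0.304% higher. DESeq2 called 8 and limma 9, both tools including Gdf10 and Hipk2. Over all 14142 genes DESeq2 called 655 in that comparison and limma 715. Gdf10, a ligand of the family, had 3.412, 5.578 and 7.384 CPM (lowest, median, highest) at 15 mg/kg, against 9.697, 14.19, 9.069, 8.602 and 8.074 CPM in levodopa replicates 1 to 5. All 15 mg/kg libraries lay below all levodopa libraries. Its log2 fold change was -0.81 ± 0.20 (edgeR adjusted p = 0.0412). Gdf10 averaged 7.022 ± 2.188 CPM at 7.5 mg/kg (SD, n = 10), and its log2 fold change against levodopa was -0.50 ± 0.20 (edgeR adjusted p = 0.355). The Gdf10 call was lost in 10 of the 25 fits that left out 1 library, among them those without levodopa replicates 1, 2 and 3, the value being -0.65 ± 0.21 without levodopa replicate 2 (edgeR adjusted p = 0.193).

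Hipk2, a nuclear kinase that acts with Smads, had 51.58, 61.69 and 73.38 CPM (lowest, median, highest) at 15 mg/kg, against 75.2, 109.1, 79.71, 71.4 and 73.94 CPM in levodopa replicates 1 to 5. The ranges overlapped through the highest 15 mg/kg library and levodopa replicate 4. Its log2 fold change was -0.42 ± 0.09 (edgeR adjusted p = 0.0267), and -0.29 ± 0.08 without levodopa replicate 2 (edgeR adjusted p = 0.152). The call was also lost without levodopa replicate 3 (edgeR adjusted p = 0.0571) and without 15 mg/kg replicates 3 and 9 (edgeR adjusted p = 0.0543 and 0.0532). With the endothelial score as a covariate the values were -0.39 ± 0.22 for Gdf10 and -0.15 ± 0.09 for Hipk2, neither past the threshold (edgeR adjusted p = 0.617 and 0.624). In that fit 4 of all 14142 genes were called.

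No gene of the remaining 6 lists passed edgeR's test at 15 mg/kg against levodopa, while DESeq2 called Thbs1, Msx1, Atoh8 and Gata2 among them and limma Grem1, Id4, Msx1 and Atoh8. Of all 96 pathway genes 27 had an unadjusted edgeR p under 0.05, 17 lower and 10 higher, against 11.2% of all genes lower and 8.26% higher. Of 14 other receptors and co-receptors 10 had negative estimates (49.8% of all genes), with a median log2 fold change of -0.11, or 8 of 14 and -0.05 without levodopa replicate 2, and the smallest p was that of Acvrl1, an endothelial type I receptor (-0.36 ± 0.12, edgeR adjusted p = 0.0991). Among 4 other Smads, 2 were positive and 2 negative, led by the shared partner Smad4 (0.24 ± 0.09, edgeR adjusted p = 0.136). Of 14 genes of ligand latency and activation 13 were negative with a median of -0.19, or 10 of 14 and -0.11 without levodopa replicate 2, led by Thbs1, which encodes a protein that activates latent TGF-beta (-1.27 ± 0.37, edgeR adjusted p = 0.0691). Thbs1 was counted at only 4 to 20 reads per library at 15 mg/kg and 10 to 55 with levodopa. The 21 inhibitors had a median of 0.02, led by the BMP antagonist Grem1 (-1.07 ± 0.35, edgeR adjusted p = 0.0893). Of 13 textbook TGF-beta targets 10 were negative with a median of -0.20, led by the transcription factor gene Zeb2 (-0.34 ± 0.11, edgeR adjusted p = 0.085), and 7 of 13 were negative with a median of -0.06 without levodopa replicate 2. The 10 textbook BMP targets were split 5 to 5 with a median of -0.04, led by Atoh8 (-0.65 ± 0.19, edgeR adjusted p = 0.0666), and without that library 4 of 10 were negative with a median of 0.07.

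At 7.5 mg/kg against levodopa and at 15 mg/kg against 7.5 mg/kg, 0 of the 96 pathway genes passed edgeR's test, where 0.0283% of all genes did in each. At an unadjusted edgeR p under 0.05 there were 16 at 7.5 mg/kg against levodopa, 11 lower and 5 higher (6.64% and 5.02% of all genes), and 6 between the doses, 3 lower and 3 higher (2.14% and 1.49% of all genes). DESeq2 also called 0 in both, and limma called 1 at 7.5 mg/kg against levodopa (Atoh8) and 0 between the doses. Over all 14142 genes limma called 102 at 7.5 mg/kg against levodopa. In the 7.5 mg/kg comparison 12 of the 13 textbook TGF-beta targets had negative estimates, with a median of -0.27 and 3 at an unadjusted p under 0.05. Those counts were 11 of 13 and 0 without levodopa replicate 2, with a median of -0.14. Between the doses 5 of the 13 had negative estimates, with a median of 0.16. Both comparisons with levodopa used the same 5 levodopa libraries.

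**Figure D5:**
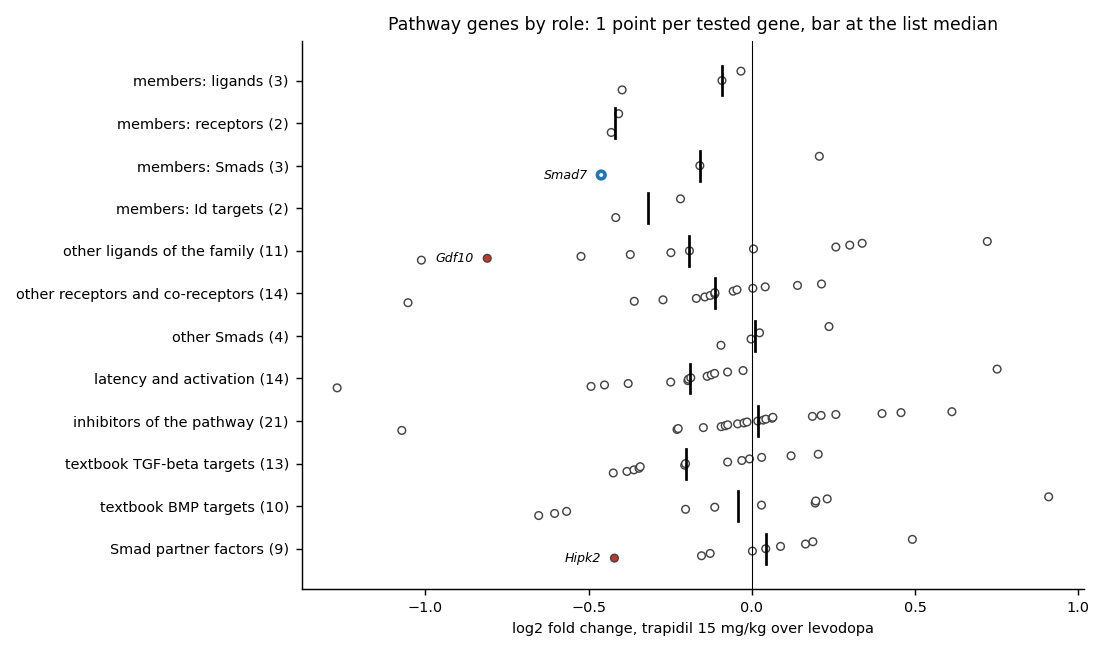
Log2 fold change at trapidil 15 mg/kg over levodopa (horizontal axis) of every tested gene of the pathway, grouped by role, with the number tested in brackets. Each point is 1 gene, the upright bar is the list median, filled points passed the edgeR test (Gdf10 and Hipk2), and the ringed blue point is Smad7, which was chosen on this contrast.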

How the data were processed

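Libraries were made from striatal RNA by polyA capture, per the labels' protocols. Raw read counts were deposited as 1 table with 25 libraries and 28909 gene names, of which 9462 were 0 in every library. Per the submitters' processing notes, FastQC, STAR and HTSeq were the tools and Rnor_6.0 the build. The sources used here give no versions, annotation release or strand setting, so reads of overlapping or antisense genes cannot be told apart. Arms were assigned from the labels, and libraries were taken as separate animals. Where that does not hold, p-values measure the spread between libraries only. No pair of libraries within an arm agreed within sampling noise (lowest chi-square per degree of freedom 12.6, 5.06 and 4.97 with levodopa, 7.5 mg/kg and 15 mg/kg). No batch is named in the labels.

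Genes were kept by filterByExpr, scaled by TMM and tested in edgeR 4.0.16 under R 4.3.3 (glmQLFit and glmQLFTest, two-sided, arm as the factor, all 25 libraries, Benjamini-Hochberg over 14142 genes, threshold 0.05, common biological coefficient of variation 0.139). SEs are the absolute log2 fold change divided by the root of F. DESeq2 1.42.0 and limma 3.58.1 were alternatives, and other alternatives changed the scaling, the filter on low counts, the threshold and the libraries used, or added a replicate block or a marker score. Scores are mean z-scores of log2(CPM + 2). Permutation p-values were computed with numpy 2.4.6, with ranks from scipy 1.17.1, and used the exact 40320 orderings where 8 libraries remained. The scripts were tested on simulated counts. Of 20 same-numbered pairs of libraries from different arms, 8 correlated above 0.1 (r -0.415 to 0.206). Pairs with different numbers were not set beside them, so these values do not decide whether replicate numbers mark pairs.

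The members and lists were chosen with earlier results of these data known. Named genes were all members, of each pathway list those past 0.05 or else the gene with the smallest p, and the 5 genes most like Smad7 on each measure. Sequences came from RefSeq tables on GRCr8, so no coordinates of the counting build are given.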

Additional observations from a re-analysis of the deposited data

Results flagged for a closer look

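In 5 of 30 sets of values (10 members in 3 arms), the highest library lay apart from the rest of its arm by Dixon's criterion, which chance meets in about 1 in 20 sets. In 4 of the 5 it was levodopa replicate 2. It had 60.15 CPM of Id1, the next levodopa library having 30.03 CPM, and 111.8 CPM of Id3, the next having 70.03 CPM. It also had 32.33 CPM of Tgfb2, the next levodopa library having 19.9 CPM, and 51.45 CPM of Tgfbr1, the next having 30.91 CPM. The other was Tgfbr2 in 7.5 mg/kg replicate 1, with 30.81 CPM, the next library of that arm having 22.83 CPM. Levodopa replicate 2 had the highest endothelial score (3.28) and the lowest spiny projection neuron score (-3.04) of all libraries, and 7.5 mg/kg replicate 1 the highest endothelial score of its arm (0.595). The part of tissue composition in these values was not tested.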

How the results depend on the processing

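The 15 mg/kg estimate for Smad7 against levodopa kept its sign, from -0.51 to -0.34 over 11 alternatives. In the comparison of 15 mg/kg with levodopa, where 185 genes were called, DESeq2 called 655, limma with quality weights 715, a threshold of 0.1 gave 862, the 2 arms alone 448, the replicate block 0, the endothelial score as covariate 4, the early gene score 56, the fit without levodopa replicate 2 and 7.5 mg/kg replicate 1 gave 76, and the fits that left out 1 library gave 9 to 894. Members called there, 0 with all libraries, were 1 by DESeq2, 2 by limma, 2 at the threshold of 0.1, 1 with the 2 arms alone and 0 to 3 when 1 library was left out. At 7.5 mg/kg against levodopa, where 4 genes were called, there were 7 with no low-count filter, 53 by DESeq2, 102 by limma, 11 at the threshold of 0.1, 1 with the 2 arms alone, 0 with the replicate block, 7 with the endothelial score, 27 without both libraries and 1 to 70 when 1 was left out, and limma called 2 members. Between the doses, where 4 genes were called, limma called 13, the fit without both libraries 9 and those without 1 library 4 to 8. There the early gene score gave 1 member, Smad7, on the 15 mg/kg libraries it was chosen on. Smad7 is also among limma's 2 members at 7.5 mg/kg against levodopa, on the levodopa libraries it was chosen on. Members with ranges that did not overlap at 15 mg/kg against levodopa numbered 2 (Smad7 and Tgfbr2) in place of 1 without TMM scaling. The relations with marker scores past 0.05 numbered 0 in place of 8 without the farthest 2 libraries.

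Log2 fold changes that turned sign were as follows, none called. At 15 mg/kg against levodopa, limma gave 0.17 for Tgfb2 and 0.14 for Tgfb3, the replicate block 0.047 for Tgfb3, and the fit without both libraries 0.18 for Tgfb2 and 0.11 for Tgfb3. The endothelial score gave 0.0753 for Tgfb1, 0.28 for Tgfb2, 0.16 for Tgfb3, 0.0103 for Tgfbr1, 0.16 for Id1, 0.12 for Id3, 0.0474 for Acvrl1 and 0.0128 for Zeb2. At 7.5 mg/kg against levodopa, limma gave 0.13 for Tgfb2, 0.23 for Tgfb3 and 0.0421 for Smad6, and the replicate block 0.0931 for Tgfb3 and 0.0823 for Smad6. The endothelial score gave 0.16 for Tgfb1, 0.17 for Tgfb2, 0.19 for Tgfb3, 0.0361 for Tgfbr1, 0.0706 for Tgfbr2, 0.12 for Smad6, 0.089 for Id1 and 0.11 for Id3. The early gene score gave 0.0353 for Tgfb3 and 0.235 for Smad6, and the fit without both libraries 0.12 for Tgfb2, 0.14 for Tgfb3 and 0.0281 for Smad6. Between the doses, limma gave 0.0138 for Tgfbr1 and -0.0167 for Smad3, the endothelial score -0.00565 for Smad3 and 0.00625 for Id3, the early gene score 0.0505 for Id3, and the fit without both libraries -0.0131 for Smad3. Leaving out 1 library gave, at 15 mg/kg against levodopa, -0.11 to 0.18 for Tgfb2 and -0.27 to 0.11 for Tgfb3. At 7.5 mg/kg against levodopa it gave -0.21 to 0.0831 for Tgfb2, -0.23 to 0.15 for Tgfb3 and -0.14 to 0.14 for Smad6, and between the doses -0.0783 to 0.0151 for Tgfb3, -0.0317 to 0.0232 for Smad3 and -0.0588 to 0.0334 for Id3. The cause of these changes was not tested.

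The replicate block ended the calls of Gdf10 (-0.74, edgeR adjusted p = 0.172) and Hipk2 (-0.48, edgeR adjusted p = 0.102), and so did the early gene score (-0.81, edgeR adjusted p = 0.0772, and -0.42, edgeR adjusted p = 0.0552). The labels name no batch, and whether a shared replicate number marks one was not tested. Without levodopa replicate 2, the ligand list held 1 called gene, Bmp2, in place of Gdf10. With all libraries the log2 fold change of Bmp2 at 15 mg/kg was -0.37 ± 0.11 against levodopa (edgeR adjusted p = 0.0666). It was -0.35 ± 0.09 at 15 mg/kg against 7.5 mg/kg (edgeR adjusted p = 0.46) and -0.02 ± 0.11 at 7.5 mg/kg against levodopa (edgeR adjusted p = 0.96). DESeq2 and limma called Bmp2 at 15 mg/kg against levodopa with all libraries. Depth limits Smad6 and Tgfb3 most among the members, with 12 and 32 reads in their lowest libraries, and Thbs1, Grem1, Prss35 and Shh had 4, 11, 7 and 17 reads in theirs. The levodopa arm has 5 libraries, so a fit without 1 of them rests on 4.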
